A study of Mus musculus with 9 samples.

Results

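The genes described here are 36 mouse genes of the endoplasmic reticulum (ER): its chaperones and their cofactors, the enzymes that form disulfide bonds and isomerise proline, the parts of ER-associated degradation, and the sensors and effectors of the unfolded protein response. They were chosen by symbol, as named rows of the deposited gene table on the iGenomes annotation. No filter on measured values was used, but earlier results of these data were known. All 36 of the 36 symbols were found among the 17565 genes of that table, and 35 passed the filter on low values used for testing. The one left out was Derl3, a derlin of the degradation machinery, with 2 reads in control replicate 1 and 0 reads in the other 8 libraries.

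The study sequenced poly-A RNA from MS1 cells, an endothelial line from mouse pancreas, carrying stable lentiviral insertions in 3 groups of 3 libraries. The control group carried the pCDH-puro vector with no insert named. The TAZ4A group carried pCDH-TAZS4A, which encodes TAZ (gene Wwtr1), a transcriptional coactivator of the Hippo pathway, with serines that the LATS kinases phosphorylate replaced by alanine. The TAZ-CAMTA1 group carried pCDH-TAZ-CAMTA1, which encodes the gene fusion found in most epithelioid hemangioendotheliomas, a vascular sarcoma. All 3 groups share the cell line and the pCDH family of vectors. The promoter that drives the insert, the number of transduced clones and the species of the cDNAs are not given in the sources used here. Separate cultures are not mentioned in the labels, and the p-values therefore measure the spread between these libraries, which may be technical.

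The ER folds secreted and membrane proteins, which endothelial cells make in large amounts for the vessel wall. When unfolded proteins build up, 3 membrane sensors respond: IRE1 (gene Ern1) cuts the mRNA of Xbp1 so that an active transcription factor is made, ATF6 (gene Atf6) is released by proteolysis, and PERK (gene Eif2ak3) phosphorylates eIF2-alpha, which slows translation but favours that of ATF4. ATF6 and spliced XBP1 activate genes for chaperones and for ER-associated degradation, often through a promoter element called the ER stress response element, and ATF4 activates genes for amino acid supply and the factor CHOP (gene Ddit3).

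Whole reads recovered from the table came to between 21966004 and 34224715 per library, so 3 reads correspond to at most 0.139 CPM (the authors' unit: reads of a gene per 1000000 of a scaled library size), and intervals below cover counting error only. The second TAZ-CAMTA1 library was unlike the rest: over the genes tested the log2 values of this replicate 2 correlated with replicates 1 and 3 at 0.963 and 0.962, where every other pair of libraries of a group reached at least 0.997. Of 10 endothelial marker genes 9 passed the filter, and the summed level was 10799 to 11008 CPM in control, 7089 to 7311 CPM in TAZ4A and 10420 to 11977 CPM in TAZ-CAMTA1, with the tenth, Cldn5, at 0 to 0.0872 CPM. Among markers of other cells, Ptprc was at most 0.186 CPM, Cdh1 at most 0.0627 CPM and Prss2 at most 0.155 CPM in any library, whereas Cd68 was at 394 to 703 CPM and Krt19 was at 7.98 to 10.03 CPM in TAZ4A against 0.439 to 2.15 CPM elsewhere. Of the 4 acinar and beta cell markers chosen only Prss2 was in the gene table, and of the 3 epithelial markers only Cdh1 and Krt19. The 4 hematopoietic markers summed to 451 to 524 CPM in control, 395 to 404 CPM in TAZ4A and 462 to 712 CPM in TAZ-CAMTA1. Of the 2 that passed the filter, 1 was called higher in each construct against control (13.2% of all genes in TAZ4A, 16.8% in TAZ-CAMTA1). Their median log2 fold change was 0.81 in TAZ4A and 2.00 in TAZ-CAMTA1. Without replicate 2, 1 rose in TAZ-CAMTA1 (median 1.82), and 1 rose and 1 fell in TAZ4A. The summed pericyte and fibroblast markers were at 3.17 to 4.41 CPM in control, 8.29 to 9.71 CPM in TAZ4A and 7.87 to 10.03 CPM in TAZ-CAMTA1. Camta1 was at 4.05 ± 0.923 CPM (SD, n = 3) in control, 4.91 ± 0.253 CPM in TAZ4A and 13.1 ± 0.579 CPM in TAZ-CAMTA1. Mouse Wwtr1 was at 551 ± 17.6 CPM in control, 325 ± 8.70 CPM in TAZ4A and 437 ± 94.4 CPM in TAZ-CAMTA1, and because the species of the cDNAs is not given, this level does not check the labels.

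The deviation of replicate 2 moved with transcript length among the ER genes, so a value without that library is given beside each result below whose call or direction it changes, and beside each count of called genes; the part it plays in a result was not tested beyond that. Without it, more genes passed across the whole table, and the share called in each direction lay between 28.1% and 32.6% of all genes. Ern1, on a transcript of 6946 nt, was in replicate 2 at 19.6% of the mean of replicates 1 and 3. Hspa13 was at 49.8%, Sel1l at 54.4% and Atf6 at 59.0% of that mean. The short transcripts went the other way, with Sec61b (564 nt) at 181% and Ppib (892 nt) at 197%. Across the 35 genes, 20 were higher in replicate 2 than the mean of the others and 15 lower, and Spearman's rho between the deviation and the length was -0.84, a description across genes that share this 1 library. Hspa5 was at 108% and Hyou1 at 77.3% of the mean of replicates 1 and 3. Ssr1, on the longest transcript of the 35 (9333 nt), was at 93.1% and so departed little.

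**Figure D1:**
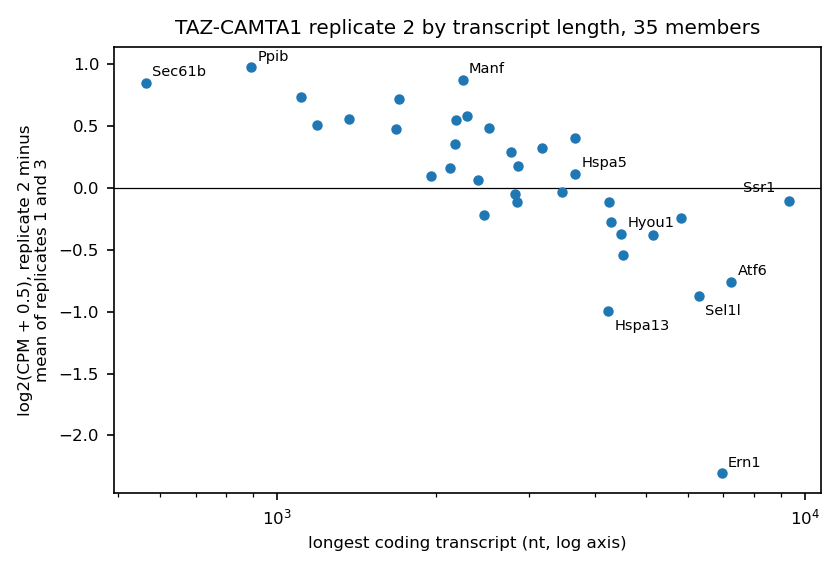
Each point is 1 of the 35 tested ER genes: the x axis is the length of its longest coding transcript in nucleotides (log axis), the y axis its log2(CPM + 0.5) in TAZ-CAMTA1 replicate 2 minus the mean of replicates 1 and 3. Short transcripts such as Sec61b and Ppib lie above 0 and long ones such as Ern1, Sel1l and Atf6 below.

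Compared per transcript length, a few chaperones dominate. In control cells, the highest mean TPM (the authors' unit scaled for transcript length) values were those of Hsp90b1 (1301 ± 93.6, SD, n = 3), Pdia3 (1297 ± 109), Hspa5 (1225 ± 76.3) and Calr (1178 ± 24.3), neighbours in the order that do not differ beyond their spread. P4hb followed at 964 ± 15.8 TPM, Canx at 797 ± 29.5 TPM, Pdia6 at 631 ± 12.9 TPM and Ppib at 623 ± 26.7 TPM. The sensors were at the lower end, with Atf6 at 32.6 ± 2.48 TPM, Ern1 at 28.8 ± 4.07 TPM and Eif2ak3 at 21.8 ± 1.11 TPM, while Xbp1 was at 134 ± 4.30 TPM. Summed over the 36 genes, the level was 9987 to 10678 TPM in the control libraries, 11334 to 11543 TPM in the TAZ4A libraries and 7610 to 7948 TPM in the TAZ-CAMTA1 libraries, so the 3 groups did not overlap. In CPM the corresponding means were 11292 ± 432, 11964 ± 105 and 8390 ± 494.

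In TAZ-CAMTA1 cells many ER folding genes were lower than in control: 17 of the 35 tested fell and 0 rose (limma, Benjamini-Hochberg adjusted p under 0.05; at an unadjusted p under 0.05, 21 were lower and 2 higher, edgeR called 17 lower and 1 higher, and DESeq2 17 and 2). Over all 12350 genes tested, 15.3% were called lower and 16.8% higher in the same comparison. The median log2 fold change of the 35 was -0.36, beside -0.03 over all genes, and Hyou1, Txndc11, Hspa5, Sel1l and Dnajc3 had the lowest values; without TAZ-CAMTA1 replicate 2 the lowest were Hspa5 at -0.82, Txndc11 at -0.79, Hyou1 at -0.76, Manf at -0.70 and Vimp at -0.68. In 19 of the 35, every TAZ-CAMTA1 library was below every control library and in 2 every one was above, where the shares over all genes were 24.7% and 22.8%. Without replicate 2 the counts were 28 lower and 3 higher, against 32.6% and 28.3% of all genes. In bulk RNA, fewer transcripts per cell and fewer cells that make them cannot be told apart.

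In TAZ4A cells single genes moved each way. Against control, 4 of the 35 rose (Txndc5, Herpud1, Hspa5 and Pdia4) and 4 fell (Selk, Edem1, Dnajb9 and Syvn1), where 13.2% of all genes were called higher and 11.7% lower. The median log2 fold change was -0.01, beside -0.01 over all genes. Groups did not overlap in 15 higher and 10 lower members, against 30.4% and 32.7% of all genes. Without TAZ-CAMTA1 replicate 2, which enters this comparison only through the shared estimate of spread, 12 rose and 9 fell, against 28.1% and 30.6% of all genes. The summed endothelial markers were also lower in TAZ4A, as given above, and their part in these differences was not tested.

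Set against each other, TAZ-CAMTA1 cells were called lower than TAZ4A cells in 17 of the 35 genes and higher in 1, Edem2. The shares over all genes were 18.5% lower and 19.4% higher, and the median log2 fold change was -0.39 beside -0.02 over all genes. Every TAZ-CAMTA1 library was below every TAZ4A library in 23 genes and above in 1, against 28.8% and 26.5% of all genes. Without replicate 2, 28 were called lower and 2 higher (Edem2 and Eif2ak3), against 32.5% and 30.5%. The comparisons with control share the control libraries, so they are not independent of each other.

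**Figure D2:**
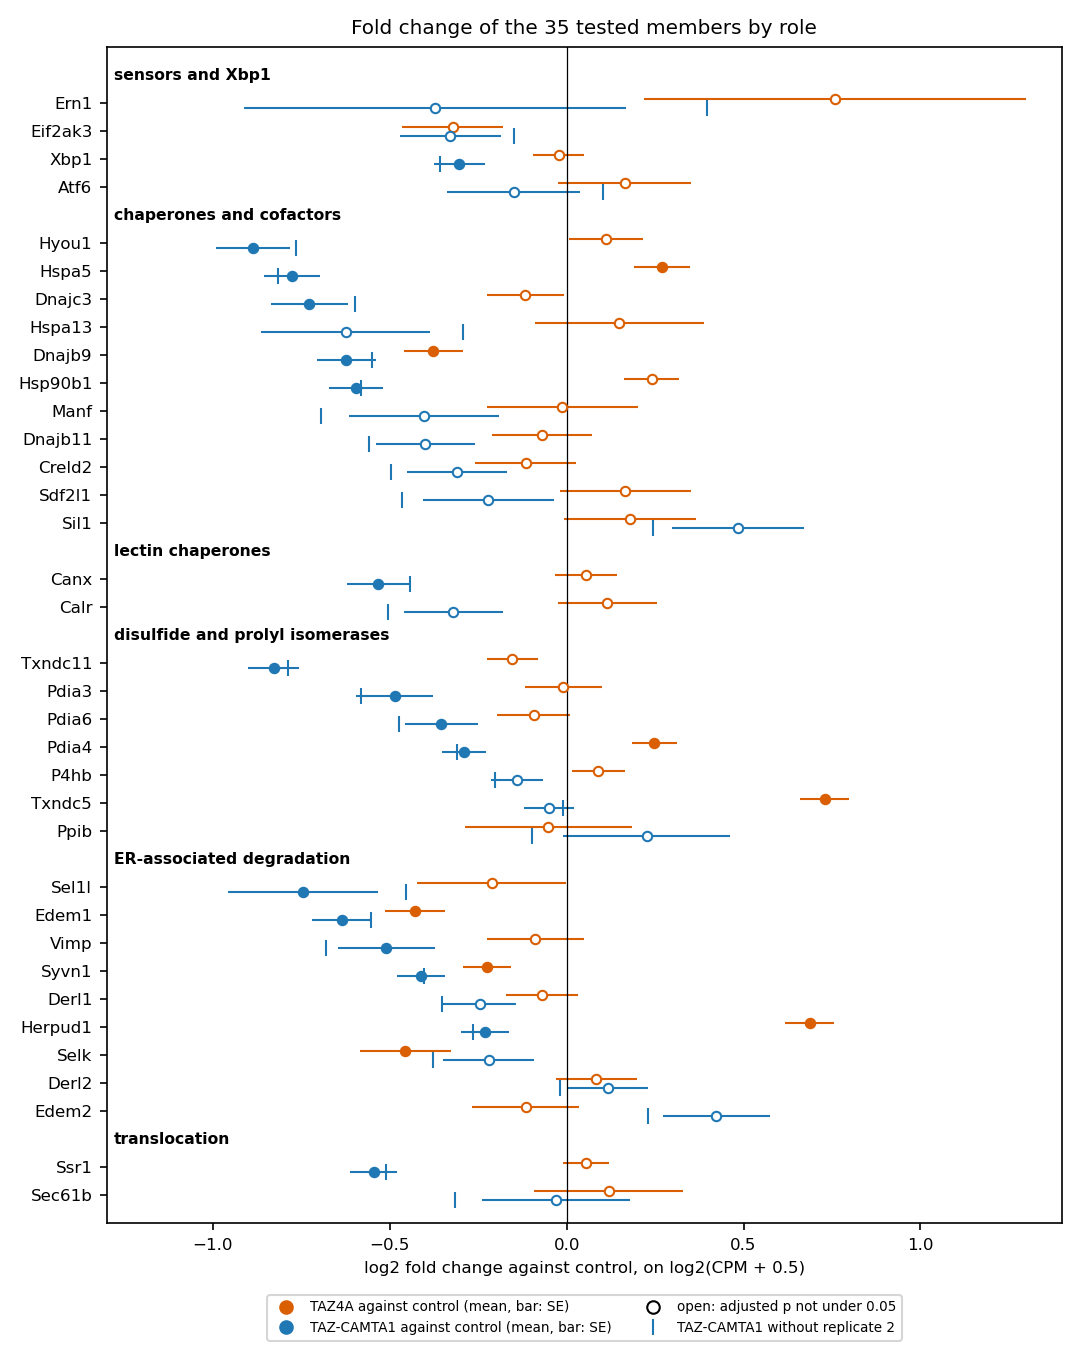
Log2 fold change against control on the x axis for each of the 35 tested ER genes, grouped by role: orange is TAZ4A, blue TAZ-CAMTA1, bars are the standard error of the fit, filled points have an adjusted p under 0.05, and blue ticks give TAZ-CAMTA1 without replicate 2. The blue filled points, 17 in number, all lie below 0, and the orange filled points lie on both sides.

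Among the chaperones and their cofactors, 5 of 11 fell in TAZ-CAMTA1 against control (15.3% of all genes) and 6 of 11 against TAZ4A (18.5%). Without replicate 2, 10 fell (32.6% of all genes) and 1 rose (28.3%) against control and 10 fell against TAZ4A (32.5%). Hspa5 (BiP, chromosome 2, 34772090 to 34776529 on GRCm38), the Hsp70 of the ER lumen that also holds the sensors inactive, was at 1220.3, 1388 and 1345 CPM in the control libraries, 1571, 1576 and 1614 CPM in the TAZ4A libraries and 784, 809.5 and 712 CPM in the TAZ-CAMTA1 libraries. The TAZ4A libraries were all above and the TAZ-CAMTA1 libraries all below the control libraries. The log2 fold change was 0.27 (SE 0.08, adjusted p = 0.037) for TAZ4A against control, -0.78 (SE 0.08, adjusted p = 1.8e-04) for TAZ-CAMTA1 against control and -1.05 (SE 0.08, adjusted p = 2.5e-05) between the constructs. TAZ-CAMTA1 cells thus held 58.3% of the control level and 48.4% of the TAZ4A level. The rise in TAZ4A did not stay under the threshold when any 1 of the 6 libraries compared was left out (adjusted p = 0.059 to 0.14), whereas both falls in TAZ-CAMTA1 did in all 9 fits that left out a library.

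Hsp90b1 (GRP94, chromosome 10, 86690841 to 86705444), the Hsp90 of the ER, was at 1357, 1531 and 1539 CPM in the control libraries, 1716, 1722 and 1782 CPM in the TAZ4A libraries and 1032, 953 and 941 CPM in the TAZ-CAMTA1 libraries. Its groups did not overlap and stood in the same order as those of Hspa5. It fell in TAZ-CAMTA1 against control with a log2 fold change of -0.60 (SE 0.08, adjusted p = 6.0e-04) and against TAZ4A with -0.84 (SE 0.08, adjusted p = 6.8e-05). The difference of TAZ4A from control missed the threshold at 0.24 (SE 0.08, adjusted p = 0.052) and passed it without TAZ-CAMTA1 replicate 2 (adjusted p = 7.2e-04).

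Hyou1 (GRP170, chromosome 9, 44379490 to 44392369), which exchanges the nucleotide of BiP, was at 256, 260.0 and 252 CPM in the control libraries, 285, 275 and 269.6 CPM in the TAZ4A libraries and 147, 116 and 154 CPM in the TAZ-CAMTA1 libraries. All 3 TAZ-CAMTA1 libraries lay far below the other 6, replicate 2 lowest, and the TAZ4A libraries lay just above control. The log2 fold change of TAZ-CAMTA1 was -0.89 (SE 0.10, adjusted p = 4.0e-04) against control and -0.998 (SE 0.10, adjusted p = 1.5e-04) against TAZ4A, and without replicate 2 it was -0.76 and -0.87. Sil1, another exchange factor of BiP, gave 0.48 (SE 0.19) against control and did not pass with all libraries (adjusted p = 0.081); without replicate 2 it was 0.24 (adjusted p = 0.015), the direction opposite to that of Hyou1.

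The J-domain cochaperones, which load clients onto BiP, fell in part. Dnajc3 (P58IPK) was at 57.3, 56.3 and 60.1 CPM in the control libraries, 51.9, 53.7 and 54.5 CPM in the TAZ4A libraries and 37.7, 29 and 38.4 CPM in the TAZ-CAMTA1 libraries. The TAZ-CAMTA1 values were below all others, with a log2 fold change of -0.73 (SE 0.11, adjusted p = 0.0013) against control and -0.61 (SE 0.11, adjusted p = 0.0027) against TAZ4A. Dnajb9 (ERdj4), a well-known target of spliced XBP1, was at 67.7, 73.2 and 73.2 CPM in the control libraries, 55.8, 53.1 and 55.6 CPM in the TAZ4A libraries and 49.8, 41.6 and 47.3 CPM in the TAZ-CAMTA1 libraries. Here both constructs were below control and the 3 groups did not overlap. On the log2 scale the change was -0.38 (SE 0.08, adjusted p = 0.011) in TAZ4A and -0.62 (SE 0.08, adjusted p = 7.7e-04) in TAZ-CAMTA1 against control, and -0.25 (SE 0.08, adjusted p = 0.048) between the constructs. Leaving out control replicate 3 or TAZ4A replicate 2 ended its call in TAZ4A, at adjusted p = 0.0502 and 0.0570. The call of Dnajb9 between the constructs was lost in 7 of 9 fits that left out a library (adjusted p = 0.066 to 0.14). Dnajb11 (ERdj3) gave -0.40 (SE 0.14, adjusted p = 0.06) against control, and fell by 0.56 without replicate 2 (adjusted p = 3.7e-06).

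Hspa13, a microsomal relative of Hsp70, was at 141, 142 and 149 CPM in the control libraries, 163, 152 and 166 CPM in the TAZ4A libraries and 120.5, 58.7 and 115 CPM in the TAZ-CAMTA1 libraries. TAZ-CAMTA1 replicates 1 and 3 were below the other groups, and replicate 2 was far lower still. Its log2 fold change was -0.77 (SE 0.24, adjusted p = 0.034) against TAZ4A and -0.63 (SE 0.24, adjusted p = 0.079) against control, and without replicate 2 these were -0.44 (adjusted p = 2.1e-06) and -0.29 (adjusted p = 1.8e-04). The call against TAZ4A was lost when any 1 control or TAZ4A library was left out (adjusted p = 0.055 to 0.10). Manf, Creld2 and Sdf2l1 are 3 ER stress-inducible genes, on transcripts of 2247, 1366 and 1108 nt. They gave -0.40, -0.31 and -0.22 against control with all libraries and passed no test. In each of them replicate 2 was above every other TAZ-CAMTA1 library, and without it all 3 fell, with log2 fold changes of -0.70, -0.50 and -0.47 (adjusted p = 1.5e-08, 3.8e-07 and 4.8e-05).

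**Figure D3:**
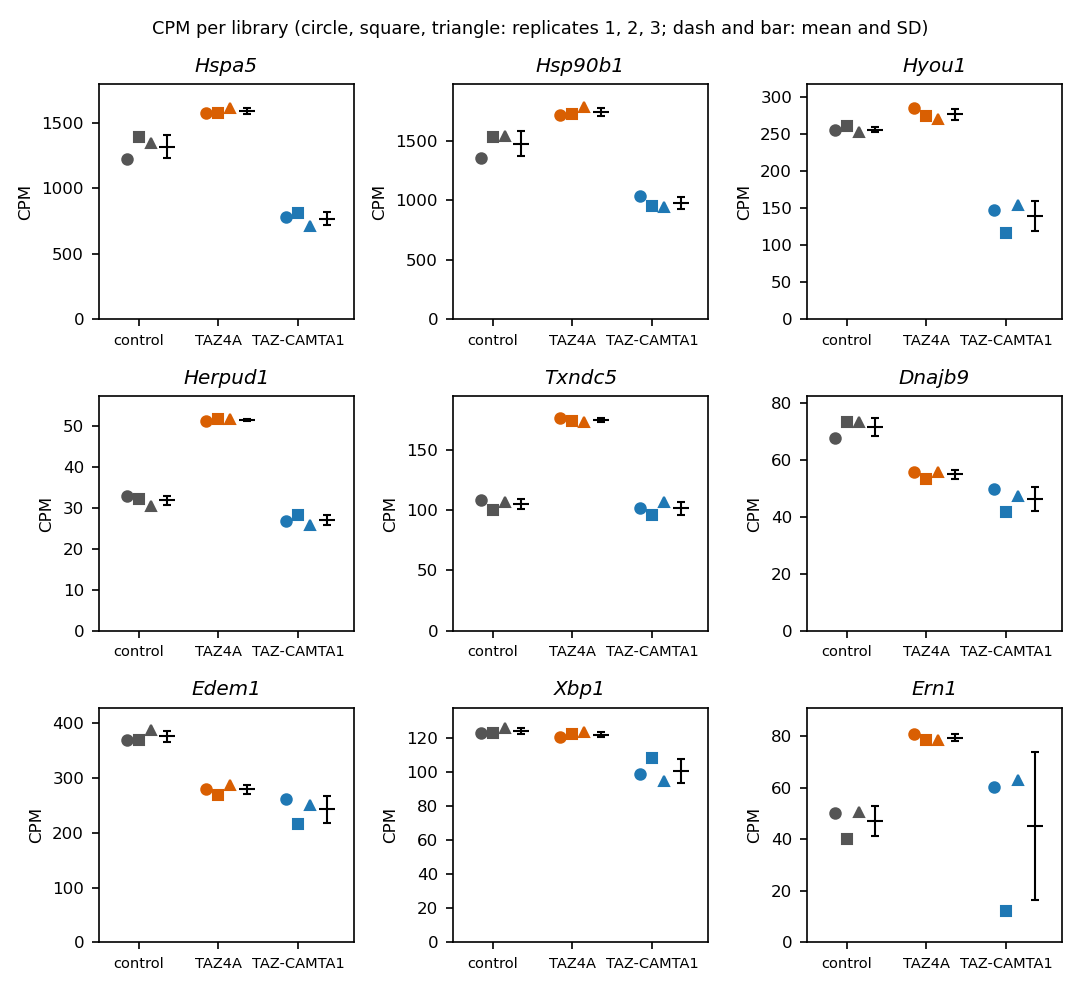
CPM on the y axis (from 0) for 9 ER genes in each library: circles, squares and triangles are replicates 1, 2 and 3 of control (grey), TAZ4A (orange) and TAZ-CAMTA1 (blue), and the dash and bar beside them are the mean and SD. Hspa5, Hsp90b1 and Hyou1 are lowest in TAZ-CAMTA1, Herpud1 and Txndc5 highest in TAZ4A, Dnajb9 and Edem1 lower in both constructs, and the TAZ-CAMTA1 bar of Ern1 is wide because replicate 2 is at 12.1 CPM.

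The lectin chaperones hold glycoproteins while they fold. Canx (calnexin) was at 1372, 1406 and 1439.5 CPM in the control libraries, 1461, 1425 and 1490.2 CPM in the TAZ4A libraries and 1042, 853 and 1027 CPM in the TAZ-CAMTA1 libraries. Every TAZ-CAMTA1 library was below the other 6. Log2 fold changes were -0.53 (SE 0.09, adjusted p = 0.0021) against control and -0.59 (SE 0.09, adjusted p = 0.001) against TAZ4A. Calr (calreticulin) fell against TAZ4A with a log2 fold change of -0.44 (SE 0.14, adjusted p = 0.039), but against control it was -0.32 (SE 0.14, adjusted p = 0.12), and replicate 2, at 971 CPM, lay among the control values of 917 to 974 CPM while the others were at 676 and 650.0 CPM. Its call against TAZ4A was kept in the fit without replicate 2 and lost in the other 8 fits that left out a library (adjusted p = 0.063 to 0.11). Without replicate 2 the value of Calr against control was -0.50 (adjusted p = 6.7e-08).

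Of the 7 disulfide and prolyl isomerases, 4 fell in TAZ-CAMTA1 against control (15.3% of all genes) and 5 against TAZ4A (18.5%), and 2 rose in TAZ4A (13.2%). Without replicate 2, 5 and 6 fell (32.6% and 32.5% of all genes), and in TAZ4A 2 rose and 1 fell (28.1% and 30.6%). Txndc11, a thioredoxin-domain protein that works with the EDEM proteins, was at 34.9, 35.2 and 34.2 CPM in the control libraries, 30.8, 32 and 30.8 CPM in the TAZ4A libraries and 19, 18.3 and 20.8 CPM in the TAZ-CAMTA1 libraries. All TAZ-CAMTA1 libraries were below all others, and the log2 fold change was -0.83 (SE 0.07, adjusted p = 7.6e-05) against control and -0.67 (SE 0.07, adjusted p = 1.7e-04) against TAZ4A. Txndc5 (ERp46), an isomerase also known as EndoPDI for its abundance in endothelium, was at 108, 100.1 and 107 CPM in the control libraries, 176, 174 and 173 CPM in the TAZ4A libraries and 101, 95.9 and 107 CPM in the TAZ-CAMTA1 libraries. The TAZ4A libraries stood alone and the control and TAZ-CAMTA1 values overlapped. TAZ4A was at 166% of the control mean, a log2 fold change of 0.73 (SE 0.07, adjusted p = 9.9e-05), and TAZ-CAMTA1 was -0.78 (SE 0.07, adjusted p = 6.2e-05) against TAZ4A and -0.05 (SE 0.07, adjusted p = 0.61) against control.

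Pdia4 (ERp72) was at 191, 197 and 202 CPM in the control libraries, 232, 233 and 236 CPM in the TAZ4A libraries and 160.2, 166 and 157 CPM in the TAZ-CAMTA1 libraries. The groups did not overlap, TAZ4A being highest and TAZ-CAMTA1 lowest. Fitted log2 fold changes were 0.25 (SE 0.06, adjusted p = 0.019) in TAZ4A and -0.29 (SE 0.06, adjusted p = 0.0081) in TAZ-CAMTA1 against control, and -0.54 (SE 0.06, adjusted p = 2.6e-04) between them. The rise in TAZ4A missed the threshold when any 1 of the 6 libraries was left out (adjusted p = 0.053 to 0.083). Pdia3 (ERp57), the partner of calnexin and calreticulin, fell in TAZ-CAMTA1 against control with a log2 fold change of -0.49 (SE 0.11, adjusted p = 0.01), and so did its relative Pdia6 with -0.36 (SE 0.10, adjusted p = 0.03). P4hb, the classical protein disulfide isomerase, fell against TAZ4A with -0.23 (SE 0.07, adjusted p = 0.037) and gave -0.14 (SE 0.07, adjusted p = 0.17) against control, where it fell by 0.20 without replicate 2 (adjusted p = 7.5e-04). The calls of Pdia6 against control and of P4hb against TAZ4A were kept without replicate 2 and lost in the other 8 fits that left out a library (adjusted p = 0.054 to 0.10 and 0.059 to 0.12). Ppib (cyclophilin B) passed no test and had its highest value, 452 CPM, in TAZ-CAMTA1 replicate 2; its log2 fold change was 0.23 against control and 0.28 against TAZ4A with that library, and -0.10 and -0.05 without it.

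In ER-associated degradation, which returns misfolded proteins to the cytosol, 5 of 9 tested genes fell in TAZ-CAMTA1 against control (15.3% of all genes), and in TAZ4A 1 rose and 3 fell (13.2% and 11.7%). Without replicate 2, 7 fell and 1 rose in TAZ-CAMTA1 (32.6% and 28.3% of all genes), and 1 rose and 4 fell in TAZ4A (28.1% and 30.6%). Herpud1 (chromosome 8, 94386500 to 94395358), a membrane organiser of the HRD1 ligase complex, was at 32.8, 32 and 30.4 CPM in the control libraries, 51, 51.6 and 51.5 CPM in the TAZ4A libraries and 26.8, 28.2 and 25.9 CPM in the TAZ-CAMTA1 libraries. The TAZ4A mean was 162% of the control mean and the TAZ-CAMTA1 values lay just below control, with no overlap among the groups. The log2 fold change was 0.69 (SE 0.07, adjusted p = 1.2e-04) in TAZ4A and -0.23 (SE 0.07, adjusted p = 0.03) in TAZ-CAMTA1 against control, and -0.92 (SE 0.07, adjusted p = 2.1e-05) between them. The fall in TAZ-CAMTA1 against control was kept without replicate 2 and lost in the other 8 fits that left out a library (adjusted p = 0.059 to 0.11).

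Edem1 (chromosome 6, 108828641 to 108859356), a mannosidase-related lectin that marks glycoproteins for disposal and a known target of spliced XBP1, was at 369.5, 369 and 388 CPM in the control libraries, 279, 269.6 and 288 CPM in the TAZ4A libraries and 261, 216 and 250.3 CPM in the TAZ-CAMTA1 libraries. Both constructs were below control. On the log2 scale the difference was -0.43 (SE 0.09, adjusted p = 0.0061) in TAZ4A and -0.64 (SE 0.09, adjusted p = 7.3e-04) in TAZ-CAMTA1, and the difference between the constructs was -0.21 (SE 0.09, adjusted p = 0.087), or -0.12 without replicate 2 (adjusted p = 0.031). Edem2, its paralog, was at 94.3, 102 and 100.4 CPM in the control libraries, 93, 95.3 and 85.2 CPM in the TAZ4A libraries and 118, 173 and 114 CPM in the TAZ-CAMTA1 libraries. The TAZ-CAMTA1 libraries were all above the others, replicate 2 highest, and Edem2 was the single gene of the 35 called higher in TAZ-CAMTA1 than in TAZ4A with all libraries, at 0.54 (SE 0.15, adjusted p = 0.023); against control it was 0.42 (SE 0.15, adjusted p = 0.064). Leaving out any 1 TAZ4A library ended that call (adjusted p = 0.055 to 0.087), and without replicate 2 the values were 0.34 (adjusted p = 7.1e-05) and 0.23 (adjusted p = 0.0026).

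Sel1l and Syvn1 encode the adaptor and the catalytic subunit of the HRD1 ubiquitin ligase. Sel1l was at 235, 219 and 239 CPM in the control libraries, 204, 193 and 200.3 CPM in the TAZ4A libraries and 166, 91.6 and 170.2 CPM in the TAZ-CAMTA1 libraries. Replicate 2 was well below the other TAZ-CAMTA1 libraries, which were themselves below control. Sel1l had a log2 fold change of -0.75 (SE 0.21, adjusted p = 0.027) against control and -0.45 without replicate 2 (adjusted p = 1.1e-06), and leaving out any 1 control library ended the call (adjusted p = 0.065 to 0.086). Syvn1 was at 75.3, 70.1 and 74.1 CPM in the control libraries, 65, 63.3 and 59.2 CPM in the TAZ4A libraries and 55.1, 54 and 55.3 CPM in the TAZ-CAMTA1 libraries. The groups did not overlap, control being highest and TAZ-CAMTA1 lowest. For Syvn1 the log2 fold change was -0.23 (SE 0.07, adjusted p = 0.042) in TAZ4A, a call lost in 8 of 9 fits that left out a library (adjusted p = 0.056 to 0.17). In TAZ-CAMTA1 it was -0.41 (SE 0.07, adjusted p = 0.0022), a call that all 9 fits kept.

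Selk and Vimp (Selenok and Selenos in current naming) are selenoproteins that bind derlins and p97. Selk was at 62.4, 67.3 and 62.2 CPM in the control libraries, 47.3, 46.1 and 45.9 CPM in the TAZ4A libraries and 46.9, 68.4 and 51.3 CPM in the TAZ-CAMTA1 libraries. The TAZ4A libraries were below control, while the TAZ-CAMTA1 libraries overlapped with both. In the fit Selk had a log2 fold change of -0.46 (SE 0.13, adjusted p = 0.032) in TAZ4A, lost when any 1 of the 6 libraries was left out (adjusted p = 0.080 to 0.11), and -0.22 (SE 0.13, adjusted p = 0.22) in TAZ-CAMTA1, where it fell by 0.38 without replicate 2 (adjusted p = 3.6e-05). Vimp fell in TAZ-CAMTA1 with -0.51 (SE 0.14, adjusted p = 0.022) against control and -0.42 (SE 0.14, adjusted p = 0.041) against TAZ4A. The first of these calls was lost in 5 of 9 fits that left out a library (adjusted p = 0.053 to 0.076) and the second in 8 (adjusted p = 0.064 to 0.12). Derl1 and Derl2, candidates for the channel through which misfolded proteins leave, gave -0.25 and 0.12 in TAZ-CAMTA1 against control and passed no test with all libraries; without replicate 2 Derl2 was at -0.02 (adjusted p = 0.79) and Derl1 fell by 0.35 (adjusted p = 4.4e-05).

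At the entry to the ER, Ssr1 (TRAP-alpha), part of the complex beside the translocon, was at 203, 212 and 212 CPM in the control libraries, 214, 214 and 222 CPM in the TAZ4A libraries and 148, 136 and 145 CPM in the TAZ-CAMTA1 libraries. The TAZ-CAMTA1 libraries, replicate 2 included, were well below the other 6. Ssr1 had log2 fold changes of -0.55 (SE 0.07, adjusted p = 4.3e-04) against control and -0.60 (SE 0.07, adjusted p = 1.8e-04) against TAZ4A. Sec61b, the beta subunit of the translocon channel, had the shortest transcript of the 35 and gave -0.03 against control with all libraries, but -0.31 without replicate 2 (adjusted p = 6.1e-04).

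None of the 3 sensor genes passed a test with all 9 libraries weighted equally in limma, edgeR or DESeq2, Eif2ak3 in TAZ-CAMTA1 against control being the single case with an unadjusted limma p under 0.05, and Xbp1 fell in TAZ-CAMTA1. Ern1 (IRE1, chromosome 11, 106397620 to 106487796) was at 50.1, 40.2 and 50.7 CPM in the control libraries, 81, 78.6 and 78.6 CPM in the TAZ4A libraries and 60.3, 12.1 and 63.2 CPM in the TAZ-CAMTA1 libraries. TAZ4A was above control in every library, and so were TAZ-CAMTA1 replicates 1 and 3, but replicate 2 was the lowest of all 9. With all libraries weighted equally no comparison passed: the log2 fold change was 0.76 (SE 0.54, adjusted p = 0.38) in TAZ4A, -0.37 (SE 0.54, adjusted p = 0.62) in TAZ-CAMTA1 and -1.13 (SE 0.54, adjusted p = 0.13) between them. Without replicate 2 the direction in TAZ-CAMTA1 turned, and Ern1 rose in both constructs, at 0.76 in TAZ4A (adjusted p = 1.2e-07) and 0.40 in TAZ-CAMTA1 (adjusted p = 4.1e-04), with -0.36 between the constructs (adjusted p = 8.6e-04). With all 9 libraries kept but weighted by their quality in limma, the 3 comparisons also passed, at 0.76 (adjusted p = 1.2e-05), 0.36 (adjusted p = 0.019) and -0.40 (adjusted p = 0.0029).

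Eif2ak3 (PERK) was at 39.7, 39.4 and 41.8 CPM in the control libraries, 31.6, 30.9 and 34 CPM in the TAZ4A libraries and 37.5, 24.8 and 35.2 CPM in the TAZ-CAMTA1 libraries. Both constructs were below control in every library. Its log2 fold change was -0.32 (SE 0.14, adjusted p = 0.15) in TAZ4A and -0.33 (SE 0.14, adjusted p = 0.11) in TAZ-CAMTA1, and it passed in both without replicate 2, at -0.32 (adjusted p = 1.0e-04) and -0.15 (adjusted p = 0.047). Between the constructs it was -0.01 (SE 0.14, adjusted p = 0.97), and 0.17 without replicate 2 (adjusted p = 0.022). Quality weights on all 9 libraries gave -0.34 in TAZ4A (adjusted p = 3.9e-05), -0.14 in TAZ-CAMTA1 (adjusted p = 0.073) and 0.20 between the constructs (adjusted p = 0.0052). Leaving out TAZ-CAMTA1 replicate 1 also brought Eif2ak3 under the threshold in TAZ-CAMTA1 against control (adjusted p = 0.0497). Atf6 was at 103, 93.2 and 104 CPM in the control libraries, 113, 107 and 116 CPM in the TAZ4A libraries and 109, 63.2 and 106 CPM in the TAZ-CAMTA1 libraries. All TAZ4A libraries were above control, and TAZ-CAMTA1 replicates 1 and 3 lay near both groups with replicate 2 far below. No test of Atf6 passed with all libraries: its log2 fold change was 0.16 (SE 0.19, adjusted p = 0.61) for TAZ4A and -0.15 (SE 0.19, adjusted p = 0.57) for TAZ-CAMTA1 relative to control, and -0.31 (SE 0.19, adjusted p = 0.22) between the constructs; without replicate 2 that of TAZ-CAMTA1 relative to control turned to 0.10 (adjusted p = 0.13) and that of TAZ4A passed (adjusted p = 0.012). The difference of TAZ4A also passed with quality weights on all 9 libraries (adjusted p = 0.014).

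Xbp1 (chromosome 11, 5520641 to 5525993, plus strand), the substrate of IRE1, was at 122, 123 and 126 CPM in the control libraries, 120.2, 122 and 123 CPM in the TAZ4A libraries and 98.5, 108 and 94.4 CPM in the TAZ-CAMTA1 libraries. TAZ-CAMTA1 was below the other groups, which overlapped. Log2 fold changes were -0.30 (SE 0.07, adjusted p = 0.012) against control, -0.28 (SE 0.07, adjusted p = 0.015) against TAZ4A and -0.02 (SE 0.07, adjusted p = 0.87) for TAZ4A against control. Leaving out control replicate 3 moved the first to adjusted p = 0.055, and leaving out any 1 TAZ4A library moved the second to adjusted p = 0.052 to 0.061. In the authors' deposited comparisons Xbp1 in TAZ-CAMTA1 was not called against control (false discovery rate 0.12) or against TAZ4A (0.14).

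The product of IRE1 could be read in the junction files. IRE1 removes 26 bases from the coding sequence in exon 4 of Xbp1, which shifts the reading frame and is not done by the spliceosome, and the deposited junction counts listed this intron, with no canonical splice motif, in all 9 libraries at chr11:5524282-5524307 of GRCm38. The sequence around it, from the GENCODE transcript, is shown because this is the event counted; the capitals are the 26 bases removed, on the plus strand at chr11:5524252-5524337, and the ends of the intron can shift by 2 bases to the right or 4 to the left without changing the spliced sequence.
Xbp1 unspliced: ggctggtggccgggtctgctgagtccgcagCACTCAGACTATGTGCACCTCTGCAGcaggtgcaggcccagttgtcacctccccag
Xbp1 spliced: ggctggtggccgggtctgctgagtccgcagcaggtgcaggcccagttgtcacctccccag

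Uniquely mapped reads across this intron numbered 31, 36 and 38 in the control libraries, 35, 31 and 22 in the TAZ4A libraries and 13, 11 and 10 in the TAZ-CAMTA1 libraries. All 3 TAZ-CAMTA1 libraries, replicate 2 among them, had fewer than any other library. Summed over a group, 105 reads (95% exact Poisson interval 85.9 to 127), 88 reads (70.6 to 108) and 34 reads (23.5 to 47.5) were found, which is 4.06, 3.06 and 1.45 per 1000000 unique junction reads. The other 4 annotated Xbp1 junctions had a mean of 10.04 ± 1.36, 9.42 ± 0.272 and 9.25 ± 1.00 reads per 1000000 in the 3 groups (SD, n = 3), so they differed by less than the spread between replicates.

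Relative to that mean, reads across the 26-base intron were 42.2%, 42.1% and 39.6% in the control libraries, 38.5%, 34.3% and 24.6% in those with TAZ4A, and 15.95%, 17.0% and 14.6% in those with TAZ-CAMTA1. The group means were 41.3% ± 1.48, 32.5% ± 7.09 and 15.8% ± 1.20 (SD, n = 3), with no overlap between any groups. TAZ-CAMTA1 was at 38.4% of control and at 48.8% of TAZ4A, and TAZ4A was at 78.7% of control. Each comparison gave p = 0.1 in an exact two-sided permutation test, the smallest that 3 against 3 libraries allow, and adjusted p = 0.1 over the 3 comparisons. For TAZ4A against control the p was 0.2 when reads were taken per 1000000 junction reads or relative to the junction of exons 3 to 4 alone. As a fraction, the ratio in TAZ-CAMTA1 minus that in control was -0.254 with all libraries and -0.260 without TAZ-CAMTA1 replicate 2. The same difference for TAZ4A was -0.0880 with all libraries and -0.0488 without TAZ4A replicate 3, the library with the lowest ratio of its group.

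**Figure D4:**
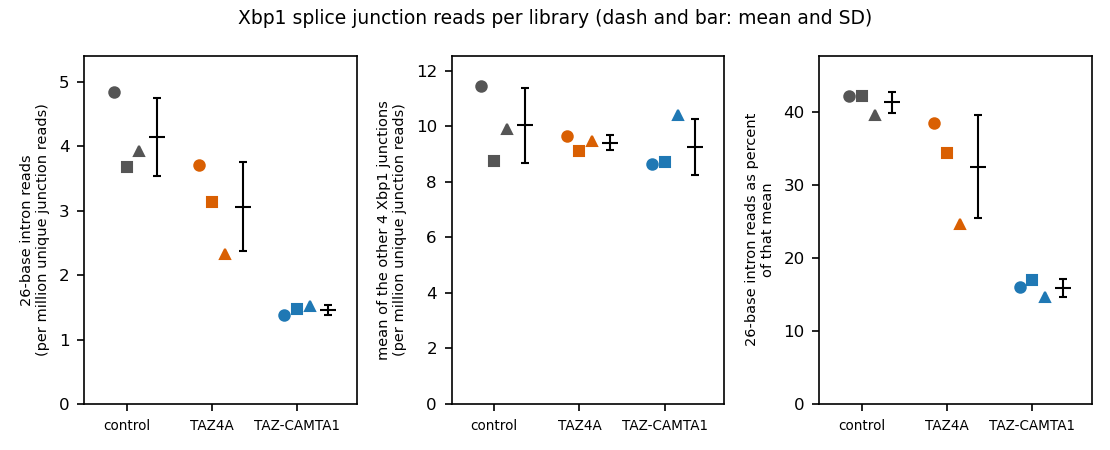
Xbp1 junction reads per library, on axes from 0: reads across the 26-base intron per 1000000 unique junction reads (left), the mean of the other 4 annotated junctions in the same unit (middle) and the first as a percent of the second (right). Symbols are replicates 1, 2 and 3, and the dash and bar are the mean and SD. The TAZ-CAMTA1 libraries are lowest in the left and right panels. In the middle panel TAZ-CAMTA1 replicates 1 and 2 (8.64 and 8.71) lie just below control replicate 2 (8.75), and replicate 3 (10.4) lies among the others.

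The promoters of several of these genes carry the element that ATF6 and XBP1 are known to bind. A RefSeq window of 250 bases before to 50 after the start on GRCm38.p6 was found for 30 of the 36 genes. The ER stress response element (CCAAT, then any 9 bases, then CCACG), searched on both strands, was present in 9 of the 30 (Calr, Canx, Creld2, Derl3, Dnajc3, Hsp90b1, Hspa5, Pdia6 and Syvn1) and in 0.119% of all 32851 windows. Its variant (ATTGG, then any 1 base, then CCACG) was present in Dnajb11 and Herpud1 and in 0.0365% of all windows, and the XBP1 element TGACGTGG in Txndc11 and Txndc5 and in 0.676%. The first 2 motifs share the letters CCACG, but no gene held more than 1 kind. A match describes letters and not binding. The matches of 7 genes are printed, each with 10 bases on both sides and the motif in capitals, in the direction of the gene; they lie upstream of the start, and in Calr the motif is on the opposite strand.
Hspa5 (chr2:34772015-34772053, plus strand): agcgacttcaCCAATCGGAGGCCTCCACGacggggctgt
Canx (chr11:50325790-50325828, minus strand): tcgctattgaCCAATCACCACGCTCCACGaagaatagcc
Dnajc3 (chr14:118937817-118937855, plus strand): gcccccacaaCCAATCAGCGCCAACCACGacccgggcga
Pdia6 (chr12:17266481-17266519, plus strand): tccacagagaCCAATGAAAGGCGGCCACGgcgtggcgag
Syvn1 (chr19:6046522-6046560, plus strand): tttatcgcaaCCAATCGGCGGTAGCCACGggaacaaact
Calr (chr8:84847065-84847103, minus strand): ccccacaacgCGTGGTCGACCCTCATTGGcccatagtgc
Herpud1 (chr8:94386367-94386397, plus strand): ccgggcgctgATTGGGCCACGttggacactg

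Genes with and without the element fell in both comparisons with TAZ-CAMTA1. Over all genes tested, 15.3% were called lower in TAZ-CAMTA1 against control and 18.5% against TAZ4A. In TAZ4A against control, 13.2% of all genes were called higher and 11.7% lower. Without TAZ-CAMTA1 replicate 2 these shares were 32.6%, 32.5%, 28.1% and 30.6%. Of the 10 tested genes whose window holds either form of the ER stress response element, 7 fell in TAZ-CAMTA1 against control (median log2 fold change -0.41), and of the 19 tested genes whose window holds neither, 9 fell (median -0.30). Against TAZ4A the counts were 6 of 10 (median -0.51) and 9 of 19 (median -0.28). In TAZ4A against control, 2 of the 10 rose and 1 fell, and 2 of the 19 rose and 3 fell. Without replicate 2, 10 of 10 and 14 of 19 fell in TAZ-CAMTA1 against control, 10 of 10 and 14 of 19 against TAZ4A, and in TAZ4A 4 of the 10 rose and 3 fell and 4 of the 19 rose and 6 fell. Hspa5, Syvn1 and Herpud1, all with a printed element, gave 0.27, -0.23 and 0.69 in TAZ4A against control. The difference between genes with and without the element was not tested.

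Other genes of the pathway were read from lists of related function, counted in the same fit and to be read against the shares of all genes called. With all libraries these were 13.2% higher and 11.7% lower in TAZ4A against control, 16.8% and 15.3% in TAZ-CAMTA1 against control, and 19.4% and 18.5% between the constructs. Counts without TAZ-CAMTA1 replicate 2 are to be read against 28.1% higher and 30.6% lower, 28.3% and 32.6%, and 30.5% and 32.5%, in the same order. The list called PERK and CHOP branch is named for a place in the pathway. RNA levels do not measure PERK activity, and the part of PERK in these levels was not tested. In that list, 6 of 12 genes rose in TAZ4A against control (median log2 fold change 0.51). In TAZ-CAMTA1, 1 rose and 2 fell against control (median -0.18), and 1 rose and 7 fell against TAZ4A (median -0.58). Without TAZ-CAMTA1 replicate 2, 9 rose and 1 fell in TAZ4A, and in TAZ-CAMTA1 1 rose and 8 fell against control and 1 rose and 10 fell against TAZ4A. Sesn2, a stress-induced inhibitor of mTORC1 signalling, was at 11.9, 11.2 and 11.7 CPM in control, 28.2, 25.4 and 25.3 CPM with TAZ4A, and 9.48, 7.02 and 8.02 CPM with TAZ-CAMTA1. Its log2 fold change was 1.14 (SE 0.11, adjusted p = 1.1e-04) in TAZ4A and -0.49 (SE 0.11, adjusted p = 0.01) in TAZ-CAMTA1 against control. Chac1, which degrades glutathione, rose by 0.93 (adjusted p = 7.2e-04) and the transcription factor gene Cebpb by 1.12 (adjusted p = 0.022) in TAZ4A. Asns, asparagine synthetase, fell by 0.39 in TAZ-CAMTA1 against control (adjusted p = 0.016), and Atf3 was the 1 gene of this list that rose there, by 0.84 (adjusted p = 1.5e-04). Of these calls, that of Cebpb was lost in 5 of 9 fits that left out a library (adjusted p = 0.060 to 0.091) and that of Asns without any 1 control library (adjusted p = 0.051 to 0.060).

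The central factors of that branch differed between the constructs. Ddit3 (CHOP) was at 13, 13.6 and 13.3 CPM in the control libraries, 23, 21.8 and 20.8 CPM in the TAZ4A libraries and 8.18, 17 and 8.5 CPM in the TAZ-CAMTA1 libraries. TAZ4A was highest, and TAZ-CAMTA1 replicate 2 stood above control while replicates 1 and 3 were below it. Its log2 fold change was -1.01 (SE 0.24, adjusted p = 0.011) between the constructs, 0.69 (SE 0.24, adjusted p = 0.067) in TAZ4A and -0.31 (SE 0.24, adjusted p = 0.34) in TAZ-CAMTA1 against control; without replicate 2 the last 2 passed at 0.69 (adjusted p = 1.4e-07) and -0.64 (adjusted p = 1.6e-06). Atf4 was at 415 ± 35.6 CPM (SD, n = 3) in control, 476 ± 6.23 CPM in TAZ4A and 351 ± 29.6 CPM in TAZ-CAMTA1, and gave -0.44 (SE 0.09, adjusted p = 0.0051) between the constructs. Bloc1s1, a mRNA that IRE1 is known to degrade, was at 57.6, 58.4 and 47.7 CPM in the control libraries, 43.3, 41.3 and 37.4 CPM in the TAZ4A libraries and 55.2, 111 and 64 CPM in the TAZ-CAMTA1 libraries. It was higher in TAZ-CAMTA1 than in TAZ4A by 0.84 (SE 0.23, adjusted p = 0.021), with replicate 2 the highest library, and by 0.54 without that library (adjusted p = 9.1e-05); leaving out any 1 TAZ4A library ended the call (adjusted p = 0.052 to 0.078).

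The machinery around the folding genes was lower in TAZ-CAMTA1 too, in part, and the degradation list was lower to a similar extent in TAZ4A. Of 16 genes of the translocon and signal peptidase, 7 fell in TAZ-CAMTA1 against control (median -0.31), among them Spcs3 at -0.63, Srpr at -0.53 and Sec61a1 at -0.50; against TAZ4A 7 fell (median -0.26), and in TAZ4A against control 1 fell, Tram1 at -0.31. Without replicate 2, 13 fell against control and 9 against TAZ4A, and in TAZ4A 1 rose and 5 fell. Outside the 36, 17 genes of degradation and retrotranslocation were tested. Of these, 6 fell in TAZ-CAMTA1 against control (median -0.23), led by Ube2j1 at -0.72, Herpud2 at -0.67 and Vcp, the p97 ATPase, at -0.55. In TAZ4A against control 5 fell (median -0.21), led by Herpud2 at -0.56. Between the constructs 3 fell (median -0.01), which is 17.6% of the list against 18.5% of all genes. Without replicate 2, 10 fell in TAZ-CAMTA1 against control, 2 rose and 12 fell in TAZ4A, and 2 rose and 6 fell between the constructs. Of 12 genes of N-glycosylation and the calnexin cycle, 3 fell in TAZ-CAMTA1 against control, namely Stt3a at -0.46, Ostc at -0.44 and Rpn1 at -0.38, 4 fell against TAZ4A, and 0 passed in TAZ4A against control (limma; 0 at an unadjusted p under 0.05 and 0 by edgeR or DESeq2; without TAZ-CAMTA1 replicate 2, 3 rose and 2 fell). Without that library 6 fell against control and 9 against TAZ4A, while the calls of Ostc and Rpn1 against control were lost in each of the other 8 fits that left out a library (adjusted p = 0.059 to 0.11 and 0.055 to 0.11).

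The remaining lists had calls in both directions, several of them near or below the shares of all genes. Further isomerases were 15.8% higher and 5.26% lower in TAZ-CAMTA1 against control (16.8% and 15.3% of all genes). The list of ATF6 processing had 8.33% each way in both comparisons with control. For ER to Golgi transport 18.8% were lower between the constructs (18.5% of all genes). Above its share were the heat shock genes, with 36.4% lower in TAZ-CAMTA1 against control. Of 19 further disulfide and prolyl isomerases, 3 rose in TAZ-CAMTA1 against control, Ero1l, the oxidase that recharges protein disulfide isomerase, at 1.20 (SE 0.23, adjusted p = 0.0051), Ppic at 0.88 and Fkbp7 at 0.70, and 1 fell, Tmx1 at -0.47. Ppic also rose in TAZ4A, by 0.71, and between the constructs 2 rose and 2 fell, with Fkbp11 lowest at -0.93. Without replicate 2 the counts were 5 higher and 7 lower in TAZ-CAMTA1 against control, 6 and 4 in TAZ4A against control, and 4 and 6 between the constructs. Of 16 genes of ER to Golgi transport, Kdelr3, a receptor that retrieves ER proteins, rose by 0.83 in TAZ-CAMTA1 against control and 3 fell, led by Sec23b at -0.79; 2 rose and 3 fell against TAZ4A, and in TAZ4A against control 0 passed (limma; 1 higher and 1 lower at an unadjusted p under 0.05, 0 by edgeR and 1 higher by DESeq2; without TAZ-CAMTA1 replicate 2, 1 rose and 6 fell). Without that library 1 rose and 8 fell in TAZ-CAMTA1 against control, and 2 rose and 5 fell against TAZ4A. Of 12 genes of ATF6 processing and related factors, 1 rose and 1 fell in each comparison with control and 2 rose and 1 fell between the constructs; without replicate 2 these were 4 and 5 in TAZ4A, 3 and 3 in TAZ-CAMTA1, and 3 and 3 between the constructs. Of 11 tested heat shock genes of cytosol and mitochondria, 4 fell in TAZ-CAMTA1 against control, led by Hsph1 at -1.15 and Hspd1 at -0.51; in TAZ4A Hspd1 rose by 0.62 and 2 fell, and between the constructs 2 rose and 4 fell. Without replicate 2, 1 rose and 6 fell in TAZ-CAMTA1, 2 rose and 6 fell in TAZ4A, and 3 rose and 6 fell between the constructs.

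In the authors' deposited table of comparisons, at a false discovery rate under 0.05, 16 of the 36 genes were called in TAZ-CAMTA1 against control (14 lower, and Edem2 and Sil1 higher), 14 between the constructs (13 lower, and Edem2 higher) and 4 in TAZ4A against control (Edem1 and Selk lower, Herpud1 and Txndc5 higher). The shares of all 17565 genes called in the authors' deposited table, in either direction, were 22.1%, 27.3% and 18.3%.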

How the data were processed

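Poly-A RNA of 9 MS1 libraries in 3 groups of 3 was sequenced by the authors with a stranded kit, per the labels' protocols. Per the submitters' processing notes the tools were bcl2fastq, FastQC, STAR, featureCounts and edgeR on build mm10; versions and settings, and whether counting used strand, are not given in the sources used here, so overlapping and antisense genes cannot be told apart. Groups are as labelled.

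The gene values used are a deposited signal per gene, named CPM by the authors, on the iGenomes annotation. Its sums per library were 976997 to 1028367, and 100% of values were whole multiples of 1 read within a tolerance of 0.01. The deposited TPM values are scaled by the authors for transcript length. The deposited junction files hold counts of unique and multiply mapped reads per intron, as STAR writes them. From the authors' deposited table, log2 ratios between groups and p-values adjusted as a false discovery rate are quoted as theirs only.

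All 17565 genes were filtered to the 12350 that reached 0.5 CPM in 3 or more libraries. The fit was limma-trend (limma 3.58.1, R 4.3.3, robust) on log2(CPM + 0.5), which understates changes of low genes, over all 9 libraries with 6 residual degrees of freedom and a median SE of 0.14, with Benjamini-Hochberg adjustment over all genes at 0.05. Because the unit proved to be a scaled signal with recoverable reads, edgeR 4.0.16 and DESeq2 1.42.0 were run on those reads as alternatives. In simulated data for TAZ4A against control (12254 genes, 200 changed), 100% of genes changed by 1 on the log2 scale and 69% of those changed by 0.5 were recovered, with 7 false calls. The simulation gave all genes the same dispersion and changed only genes above a minimum mean level. It held no deviating library like TAZ-CAMTA1 replicate 2, so these shares do not measure recovery in the real fit. Junction ratios were compared by exact permutation (SciPy 1.17.1). Gene starts are printed 1-based. Promoter windows are from RefSeq on GRCm38.p6, and Xbp1 exons from GENCODE transcripts on GRCm38.

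The genes, the pathway lists and the tests were chosen with earlier results of these data known. Given per library are the 3 sensors, Xbp1, Hspa5, Hsp90b1 and, in each comparison, the called genes of largest change, up to 10 in each direction; of the other lists, at most 3 called genes in each direction, and always Atf4, Ddit3 and Bloc1s1. Alternatives were another pseudocount, filter, unit, annotation, scaling, test, set of libraries and weights, each library left out, and the replicate number as a block. Same-numbered libraries of different groups deviated together only in part (correlations -0.12 to 0.52), so the numbers were not taken as pairs.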

Additional observations from a re-analysis of the deposited data

Results flagged for a closer look

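A set of 3 genes was called in opposite directions under the 2 constructs, each against the same control libraries. The difference between the constructs was also tested in the limma fit. Opposite calls against 1 control already imply such a difference, so this test gives no separate support. For Hspa5 the log2 difference of TAZ-CAMTA1 from TAZ4A was -1.05 (SE 0.08, adjusted p = 2.5e-05, lower in 3 of 3 libraries), for Herpud1 -0.92 (SE 0.07, adjusted p = 2.1e-05, lower in 3 of 3) and for Pdia4 -0.54 (SE 0.06, adjusted p = 2.6e-04, lower in 3 of 3). The rise in TAZ4A was not called for Hspa5 and Pdia4 when any 1 of the 6 control and TAZ4A libraries was left out, and was called for Herpud1 in all 9 fits that left out a library. The fall of Herpud1 in TAZ-CAMTA1 against control was lost in 8 of those 9 fits, and the falls of Hspa5 and Pdia4 in none. In the authors' deposited comparisons the rise in TAZ4A was not called for Hspa5 (false discovery rate 0.17) or Pdia4 (0.24). There the fall in TAZ-CAMTA1 against control was not called for Pdia4 (0.13) or Herpud1 (0.25). The difference between the constructs was called there for all 3.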

How the results depend on the processing

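Counts of called ER genes depended on TAZ-CAMTA1 replicate 2 and on how it was weighted. With 4 called higher and 4 lower in TAZ4A against control, leaving out a library gave 2 to 12 and 1 to 9, quality weights 13 and 10, and fitting only the 6 libraries compared 12 and 8; lower calls were 1 on TPM and 2 after rescaling to the same sum or quantile normalization. For TAZ-CAMTA1 against control (0 higher, 17 lower), leaving out a library gave 0 to 3 and 12 to 28 and weights 3 and 27; the 6-library fit gave 11 lower, and TPM 2, the replicate block 1, edgeR 1 and DESeq2 2 higher. Between the constructs (1 higher, 17 lower) the ranges were 0 to 2 and 11 to 28, weights gave 2 and 28, and the 6-library fit 0 and 11. The lowest counts came from leaving out a control or TAZ4A library, and 12, 9, 3, 28, 2 and 28 from leaving out replicate 2. Replicate numbers were not taken as pairs; with the replicate block the counts were 3 and 3, 1 and 16, and 1 and 16. On TPM the median of all genes between the constructs was -0.13, and all genes called in TAZ4A against control split 1659 higher to 1093 lower, and 1967 to 1106 after rescaling, against 1630 to 1447.

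Of 31 called results, 20 were called in all 22 alternatives. The 31 are those of Xbp1, Hspa5 and Hsp90b1 and, in each comparison, the called genes of largest change, up to 10 in each direction. Calls of smaller change that are also given above were not counted here, and several were lost in most fits that left out a library. Among the 31 and the 11 results not called under the same choice, direction turned in the following cases. None of these cases was called with all libraries weighted equally. Xbp1 in TAZ4A against control was 0.027 on TPM, 0.040 after rescaling and 0.032 after quantile normalization. Atf6 in TAZ-CAMTA1 against control was 0.10 with weights and -0.29 to 0.10 over the fits that left out a library. Ern1 in that comparison was 0.36 with weights (adjusted p = 0.019 in limma) and -0.77 to 0.40 over those fits. Eif2ak3 between the constructs was 0.019 after quantile normalization, 0.015 in edgeR, 0.013 in DESeq2, 0.20 with weights (adjusted p = 0.0052 in limma) and -0.12 to 0.17 over those fits. The positive ends of the last 3 ranges came from leaving out TAZ-CAMTA1 replicate 2, which also turned Ppib and Derl2, neither of them called, in both comparisons with TAZ-CAMTA1. The cause was not tested. The lower junction ratio of Xbp1 kept its direction in every alternative run, at counts of 10 to 38 reads per library, which limit its precision. Because the groups did not overlap in this ratio, leaving out a library could not turn it. The other alternatives reuse the same intron reads.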
